A study of Mus musculus with 4 samples.

Results

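Asb14, Pm20d1, Acss3, Rxfp1, Gm20619, Gm40841 and D830032E09Rik were taken as the genes leading in CM1 nuclei, the largest cardiomyocyte population in nuclei of the neonatal mouse heart. They were chosen by the ratio of their summed unique molecular identifiers (UMIs, counts of captured RNA molecules) in CM1 over that in CM2, CM4 and CM5 together, and are 7 of the 22574 genes in the deposited count matrix. Because that ratio chose them, their lead in CM1 over all libraries is a description here and carries no test. The question followed was whether the lead was kept within each library or was set by surgery or genotype.

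Nuclei came from mouse pups on a C57BL/6 background that at postnatal day 3 underwent myocardial infarction (MI), in which the left anterior descending (LAD) coronary artery was tied, or Sham surgery, in which the chest was opened and no artery was tied. Tissue was collected the day after. All animals carried loxP-flanked alleles of Nrf1 (gene symbol Nfe2l1), written Nrf1 fl/fl. The KO animals also carried αMHC-Cre, in which the alpha myosin heavy chain promoter drives Cre recombinase in cardiomyocytes, and the WT animals carried no Cre. For each library, the lower parts of 4 to 6 hearts, all with 1 genotype and cut at the level of the ligation, were pooled. There was 1 library for each of the 4 groups MI-WT, MI-KO, Sham-WT and Sham-KO. With 1 library per group, differences between groups have no replicate check and no p-value, and they describe the libraries compared. CM1, CM2, CM4 and CM5 are the final cardiomyocyte populations of the study, and the study merged CM3 into CM1. Of 994 nuclei with the transferred label CM3, 931 are in final CM1.

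Asb14 encodes an ankyrin repeat and SOCS box protein, of the family of substrate receptors that bring proteins to Cullin 5 ubiquitin ligases. Pm20d1 is a secreted enzyme that makes and breaks N-acyl amino acids, conjugates of fatty acids and amino acids. Acss3 is a mitochondrial short-chain acyl-CoA synthetase that prefers propionate as its substrate. Rxfp1 is the receptor of the peptide hormone relaxin, a G protein coupled receptor that raises cyclic AMP. Gm20619, Gm40841 and D830032E09Rik are annotated as long intergenic noncoding RNAs, RNA genes with no protein product, and no role is given for them here. Cardiomyocytes of the newborn mouse can still divide and lose this capacity soon after birth, while their metabolism turns from glucose toward fatty acids.

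Promoter sequences are shown for Asb14 and Gm20619, the members with the highest pooled lead, because the 7 genes were picked together by a shared pattern of level and these were the 2 of the 7 members matched in the RefSeq promoter table of build GRCm38.p6. Each window runs from 250 bases before to 50 bases after the RefSeq start, on the plus strand, at chr14:26894364-26894663 for Asb14 and chr6:6248409-6248708 for Gm20619. The RefSeq start of Asb14 lies inside the GENCODE gene body, downstream of its first base. Capitals mark, 5′ to 3′, the nuclear receptor hexamer AGGTCA, a MEF2 match and GATAA in Asb14, and the antioxidant response element core TGACNNNGC and the hexamer in Gm20619, both of these on the minus strand.
Asb14: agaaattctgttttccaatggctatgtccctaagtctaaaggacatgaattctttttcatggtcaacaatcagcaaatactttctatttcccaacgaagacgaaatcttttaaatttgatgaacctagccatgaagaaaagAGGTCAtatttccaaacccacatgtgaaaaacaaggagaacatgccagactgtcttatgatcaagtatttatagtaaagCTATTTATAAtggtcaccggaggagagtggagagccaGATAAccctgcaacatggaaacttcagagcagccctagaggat
Gm20619: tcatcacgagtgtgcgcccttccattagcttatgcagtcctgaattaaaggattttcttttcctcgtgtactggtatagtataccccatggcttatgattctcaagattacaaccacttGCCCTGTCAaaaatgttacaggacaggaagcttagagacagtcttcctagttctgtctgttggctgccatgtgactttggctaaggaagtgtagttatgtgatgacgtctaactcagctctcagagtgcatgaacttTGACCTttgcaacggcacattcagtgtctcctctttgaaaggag

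Both strands were searched for 6 motifs, those of cardiac and stress-response factors and the TATA box. In Asb14 the hexamer began at base -109, counted from the RefSeq start as base 1 with no base 0, MEF2 at -30 and GATAA at 8. The Asb14 window also held TATAAA at -42 and -27, both on the minus strand, of which the second lay inside the MEF2 match, and neither is capitalised. In Gm20619 the response element core began at -131 and the hexamer at 7. Neither window held the TEAD motif CATTCC. Of 32851 RefSeq promoters of the same length, 25.4% held GATAA, 16.3% the hexamer, 14.7% CATTCC, 13.6% TATAAA, 12.4% the response element core and 3.19% the MEF2 motif, so each match is a description of letters and not of a bound site.

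The libraries summed to 4984625 to 9106522 UMIs over 1406 to 3328 nuclei, and CM1 made up 70.6% to 78.7% of the nuclei of each. The other populations were far smaller, with 27 to 124 CM2, 118 to 351 CM4 and 89 to 355 CM5 nuclei per library, so their levels are less precise. Levels are given as CPM, UMIs of a gene per 1000000 UMIs of the same nuclei, with exact 95% Poisson intervals, and differences as log2 ratios of CPM with exact conditional binomial 95% intervals. These intervals, and the floors for 0 UMIs, take in counting error and nothing else. All 8 cardiomyocyte markers were detected in CM1 of every library and summed to 34571 to 38656 CPM, and 9 cell barcodes occurred in more than 1 library. Nfe2l1, the targeted gene, had 44.1 CPM in CM1 of MI-WT, 57.7 in MI-KO, 61.4 in Sham-WT and 53.3 in Sham-KO. Its log2 ratio of KO over WT was -0.20 (-0.44 to 0.03) after Sham and 0.39 (0.14 to 0.63) after MI, which goes against the label in CM1 after MI. In the smaller populations the ratio after MI was -0.95 (-2.11 to 0.12) in CM4, -0.81 (-2.20 to 0.50) in CM2 and 0.06 (-0.41 to 0.52) in CM5, and after Sham -0.44, -0.66 and -1.14 (-2.02 to -0.28). Which exons are removed is not given in the sources used here, and counts from undeleted exons would not check the deletion, so KO and WT below name the libraries as they are labelled.

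Among 9914 genes with 200 or more UMIs, all 7 members were within the first 10 by the pooled ratio, with Gm31600 (3.32-fold) and Gm826 (3.31-fold) among them. The pooled folds of CM1 over the other nuclei were 3.77 for Asb14, 3.55 for Gm20619, 3.32 for Gm40841, 3.20 for Pm20d1, 3.18 for D830032E09Rik, 3.15 for Acss3 and 3.15 for Rxfp1. Just below Rxfp1 came Gm45012 and 6430710C18Rik, both 3.14-fold, and, at a lower minimum of 50 UMIs, Gm44759 (3.12-fold), so the members end where the ratios run on without a gap. With that lower minimum the members ranked 17 to 49 of 13142 genes, and most of the further genes among and above them held fewer than 200 UMIs. The members themselves held 268 (Pm20d1) to 2275 (Gm40841) UMIs over all nuclei.

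The positions are those of GENCODE M21 on GRCm38. Asb14 (ENSMUSG00000021898.14) lies at chr14:26894557-26915258 on the plus strand, Pm20d1 (ENSMUSG00000042251.12) at chr1:131797381-131821473 on the plus strand, and Acss3 (ENSMUSG00000035948.13) at chr10:106933517-107123668 on the minus strand. Rxfp1 (ENSMUSG00000034009.14) lies at chr3:79641611-79737880 on the minus strand. Of the noncoding members, Gm20619 (ENSMUSG00000093482.8) lies at chr6:6248659-6378675 and D830032E09Rik (ENSMUSG00000100457.6) at chr1:107917259-108028337, both on the plus strand, and Gm40841 (ENSMUSG00000113216.1) at chr13:28394453-28420066 on the minus strand. Exons covered 2.80% to 29.2% of the gene bodies, and introns were counted as well because reads had been aligned to a pre-mRNA reference. The noncoding members were 3 of 7, or 42.9%, beside 5.19% of 9827 annotated genes with 200 or more UMIs, and the median gene length was 96.3 kb beside 29.5 kb.

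Asb14 stood at 21.2 CPM (17.6 to 25.3) in CM1 of MI-WT, 16.2 (12.9 to 19.96) of MI-KO, 83.6 (75.0 to 92.9) of Sham-WT and 50.7 (45.7 to 56.1) of Sham-KO. Outside CM1, this ubiquitin ligase receptor gene reached no more than 11.7 CPM in any population of the MI libraries and 29.9 CPM, in CM5 of Sham-KO, in the Sham libraries. CM1 held the highest level of Asb14 in all 4 libraries, and only in Sham-WT was its interval clear of the next population.

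Pm20d1 was the member with the fewest UMIs and had 6.72 CPM (4.78 to 9.19) in CM1 of MI-WT, 8.27 (6.01 to 11.1) of MI-KO, 17.1 (13.4 to 21.6) of Sham-WT and 12.4 (9.99 to 15.2) of Sham-KO. In CM2 its level was 7.77 CPM in MI-WT and 26.7 CPM in Sham-WT, above CM1 in both, on sums in which the CM2 intervals were several times wider than those of CM1. In CM4 it had 0 UMIs in MI-KO and in Sham-WT, where 3 UMIs would have been 8.73 and 7.59 CPM.

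Acss3, the propionate-activating enzyme, had 21.6 CPM (17.9 to 25.7) in CM1 of MI-WT, 22.7 (18.9 to 27.2) of MI-KO, 97.8 (88.5 to 108) of Sham-WT and 79.8 (73.4 to 86.5) of Sham-KO. CM2 was above CM1 in both MI libraries, at 38.8 and 34.5 CPM, and close to it in Sham-WT, at 80.0 CPM. In CM5 of MI-KO no UMI of Acss3 was found among 1403994, where 3 UMIs would have been 2.14 CPM, and the Poisson interval reached 2.63 CPM.

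Rxfp1, the relaxin receptor, had the opposite order of surgeries in CM1, with 81.0 CPM (73.9 to 88.7) in MI-WT, 74.8 (67.6 to 82.5) in MI-KO, 55.6 (48.7 to 63.3) in Sham-WT and 48.5 (43.6 to 53.8) in Sham-KO. In CM5 its level was 2.03 CPM (0.419 to 5.93) in MI-WT and 3.56 (1.16 to 8.31) in MI-KO, against 73.8 (47.3 to 110) in Sham-WT and 50.4 (34.5 to 71.1) in Sham-KO. By these levels CM5 was the highest population for Rxfp1 in both Sham libraries and the lowest in both MI libraries. It was not separated from CM1 after Sham. There the log2 ratio of CM1 over CM5 was -0.41 (-1.02 to 0.26) in Sham-WT and -0.05 (-0.58 to 0.52) in Sham-KO.

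Among the noncoding RNAs, Gm20619 had 12.2 CPM (9.56 to 15.4) in CM1 of MI-WT, 17.3 (13.9 to 21.2) of MI-KO, 65.3 (57.7 to 73.5) of Sham-WT and 40.6 (36.1 to 45.5) of Sham-KO. It had 0 UMIs in CM5 of MI-WT, CM4 of MI-KO and CM2 of Sham-WT, where 3 UMIs would have been 2.03, 8.73 and 26.7 CPM. Its CM1 level was the highest in every library, but CM2 was next to it in MI-KO, at 17.2 CPM, and had 34.5 CPM in Sham-KO.

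Gm40841 had 42.1 CPM (37.0 to 47.7) in CM1 of MI-WT, 31.8 (27.1 to 36.9) of MI-KO, 158 (146 to 171) of Sham-WT and 139 (130 to 147) of Sham-KO. The CM1 intervals of both Sham libraries were clear of every other population, whose levels there were 30.3 to 72.4 CPM. D830032E09Rik had 39.3 CPM (34.4 to 44.8) in CM1 of MI-WT, 38.0 (32.9 to 43.6) of MI-KO, 85.3 (76.6 to 94.6) of Sham-WT and 64.8 (59.1 to 70.8) of Sham-KO. Its CM2 level was 35.0, 44.8, 53.3 and 51.8 CPM in the same order, above CM1 in MI-KO alone. Over the 28 pairs of member and library, CM1 was the highest population in 20, CM2 in 6, CM5 in 2 and CM4 in 0, and in 5 of the 20 the CM1 interval was clear of the second. Across all genes with 20 or more UMIs in a library, CM1 was the highest in 16.8% of pairs, and the members had been chosen for a high CM1 level.

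**Figure D1:**
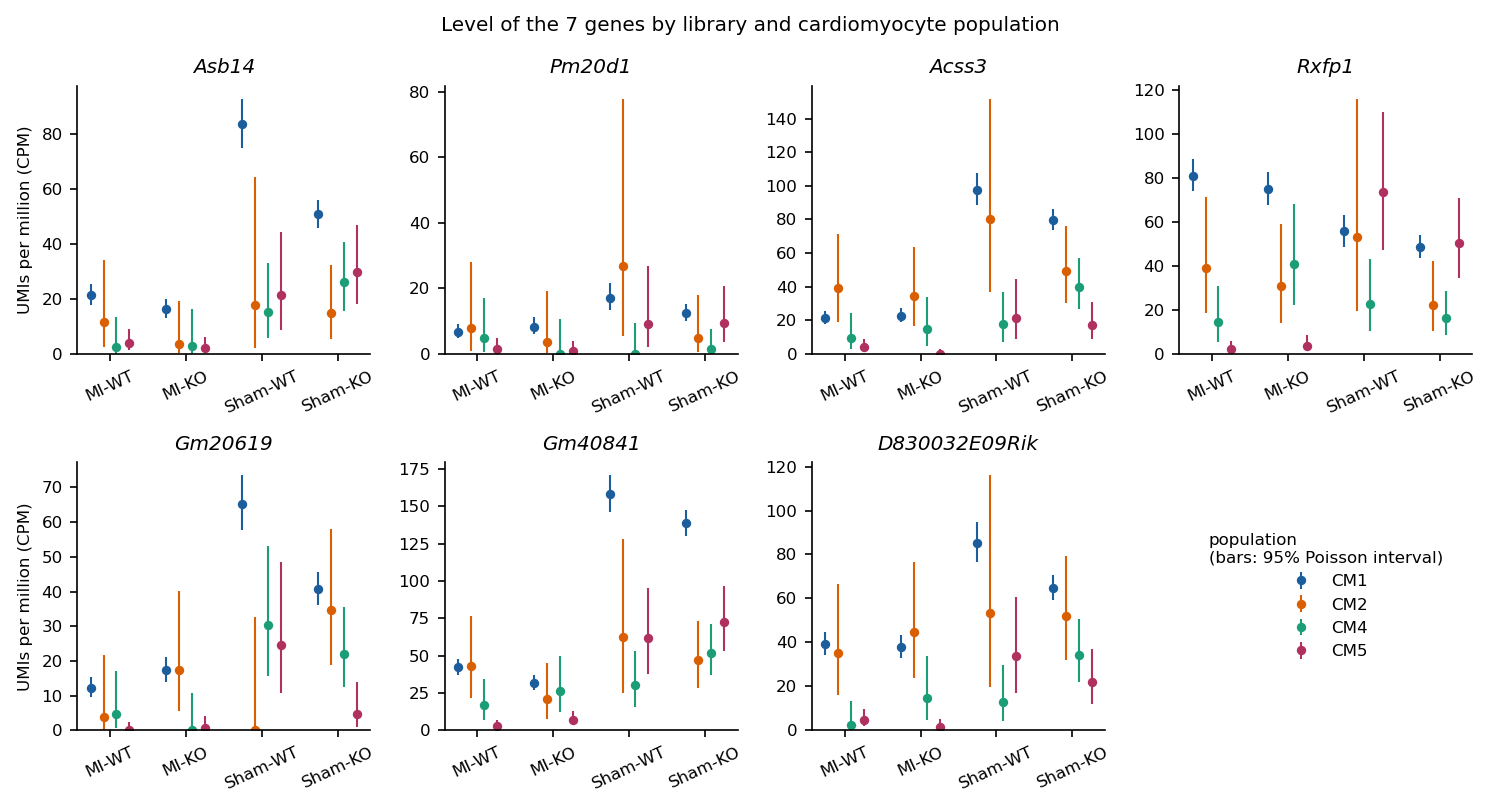
Level of each gene in CPM (vertical axes, a scale for each gene) in CM1, CM2, CM4 and CM5 of the 4 libraries, with 95% Poisson intervals as bars. CM1 points of 6 genes stand higher in the Sham than in the MI libraries, while those of Rxfp1 stand lower, at 55.6 and 48.5 CPM after Sham against 81.0 and 74.8 CPM after MI.

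The lead of CM1 over CM2, CM4 and CM5 together was above 0 for every member in every library, 28 of 28 log2 ratios, and 27 of the 28 intervals lay above 0. Over all 48177 pairs of gene and library tested, 47.4% of ratios and 14.2% of intervals were above 0. The lead was at least 2-fold for 7 of 7 members in MI-WT, where 5.81% of 12286 genes tested had such a lead, for 7 of 7 in MI-KO (5.73% of 12172 genes), for 6 of 7 in Sham-WT (8.24% of 11268) and for 5 of 7 in Sham-KO (2.84% of 12451). Over all libraries pooled, the ratio that chose the members, it was 7 of 7 beside 4.14% of 15076 genes. All of these counts repeat the measure used for the choice. The median lead of the members was 2.19 in MI-WT, 2.44 in MI-KO, 1.69 in Sham-WT and 1.12 in Sham-KO on the log2 scale, where the medians of all genes tested were -0.07, -0.09, 0.10 and -0.03.

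Summed over the 7 genes, CM1 had 224 CPM (212 to 237) in MI-WT, 209 (197 to 222) in MI-KO, 563 (540 to 586) in Sham-WT and 435 (420 to 451) in Sham-KO. The other nuclei had 45.0 (36.5 to 54.9), 49.6 (40.4 to 60.2), 197 (168 to 229) and 204 (184 to 227) CPM in the same order. The summed lead was therefore 4.98-fold, 4.22-fold, 2.86-fold and 2.13-fold, in the same order. It was larger in both MI than in both Sham libraries here, but not with CM5 left out of the other nuclei. Nor was it larger among nuclei whose final and transferred labels agree. Their log2 leads were 2.004 and 1.21 in MI-WT and MI-KO against 2.17 and 1.44 in Sham-WT and Sham-KO. That choice leaves out CM5 as well, so it is not a separate check. Most of final CM5 has the transferred name CM2, and most of final CM2 the name CM5. In both populations 0 nuclei have agreeing labels, and CM4 alone is left beside CM1. Among nuclei with 1000 to 3000 UMIs the lead of MI-KO, 1.09, was below that of Sham-WT, 1.52. A mean that weighted the 4 libraries equally gave 3.36-fold, beside 3.30-fold for the pooled ratio.

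The lead of Acss3 varied least between libraries, from 1.22 (0.53 to 1.98) in MI-WT to 1.82 (1.22 to 2.50) in Sham-WT on the log2 scale. For Gm40841 it ran from 1.25 (0.96 to 1.56) in Sham-KO to 2.04 (1.41 to 2.74) in MI-WT. For D830032E09Rik it was 0.93 (0.55 to 1.35) in Sham-KO and 2.32 (1.61 to 3.12) in MI-WT, and for Asb14 it was 1.03 (0.58 to 1.51) in Sham-KO and 2.72 (1.44 to 4.38) in MI-KO. These 4 genes, and also Pm20d1 and Gm20619, kept a lead with an interval above 0 in every library. The lowest of these bounds, that of Pm20d1 in MI-WT, was 0.02. The pooled lead of Asb14, 3.77-fold, was 6.10-fold without Sham-KO. The lead of Pm20d1 lay between 1.25 (0.05 to 2.74) in Sham-WT and 3.07 (1.14 to 6.16) in MI-KO, with intervals too wide to order the libraries. Gm20619 had 3.14 (1.53 to 5.45) in MI-WT, 2.55 (1.38 to 4.04) in MI-KO, 1.44 (0.79 to 2.18) in Sham-WT and 1.12 (0.60 to 1.69) in Sham-KO. Rxfp1 varied most, with a lead of 3.20 (2.54 to 3.95) in MI-WT, 2.44 (1.89 to 3.05) in MI-KO, 0.25 (-0.24 to 0.78) in Sham-WT and 0.70 (0.28 to 1.14) in Sham-KO. Its MI intervals did not overlap its Sham intervals, and its pooled lead of 1.65 was 1.18 when MI-WT was left out. After nuclei were thinned to 1000 UMIs its lead in Sham-WT was -0.03.

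**Figure D2:**
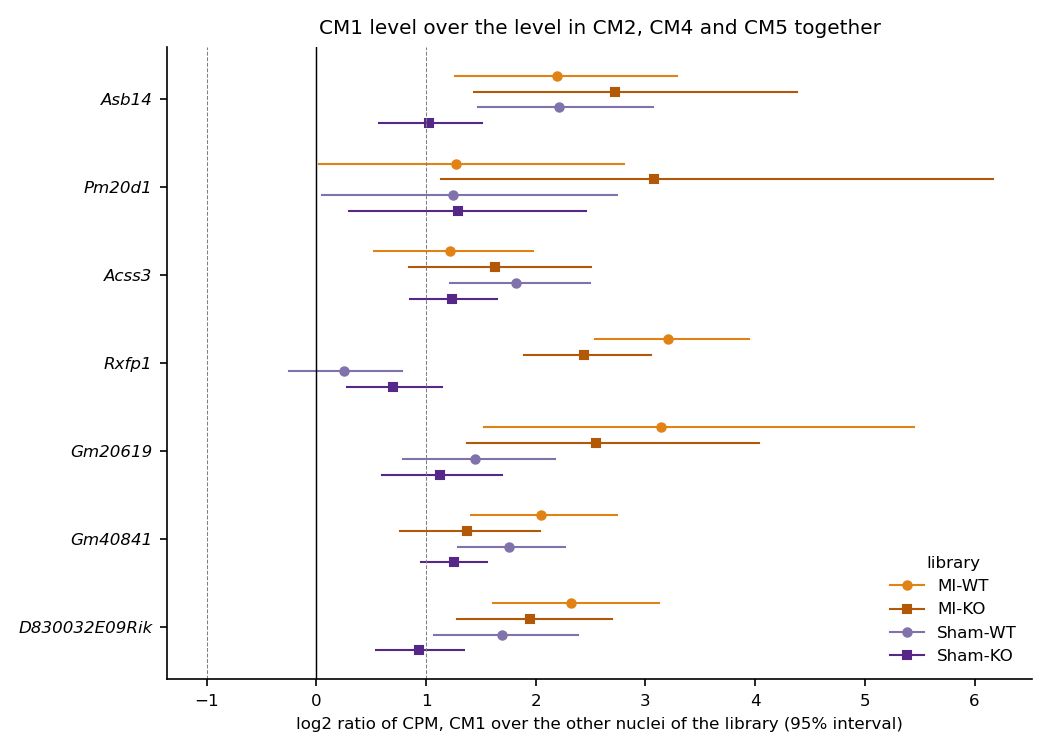
Log2 ratio of the CPM in CM1 over the CPM in CM2, CM4 and CM5 together (horizontal axis) for each gene and library, with 95% intervals as bars and 2-fold as dashed lines. All 28 points lie right of 0, and Rxfp1 in Sham-WT, at 0.25, is the one whose interval includes 0.

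Against each population alone, the summed members were 3.56 and 3.74 higher in CM1 than in CM5 on the log2 scale in MI-WT and MI-KO, and 1.19 and 1.08 higher in Sham-WT and Sham-KO. Against CM4 the log2 ratios were 2.04, 1.08, 2.13 and 1.18 in the order MI-WT, MI-KO, Sham-WT and Sham-KO. Against CM2 they were smallest, at 0.33 (-0.10 to 0.78), 0.43, 0.94 and 0.96. With CM5 left out of the other nuclei, a choice made after seeing the data, the summed lead went from 2.32 to 1.14 in MI-WT and from 2.08 to 0.75 in MI-KO, while it was 1.77 and 1.10 in Sham-WT and Sham-KO, and that of Acss3 in MI-KO turned from 1.63 to -0.06. Of the 28 pairs of member and library, CM1 was above CM4 in 27 with 1 undetermined, Pm20d1 in MI-KO, where CM4 held 0 UMIs and 3 UMIs would have been more than the level of CM1. It was above CM5 in 26 and above CM2 in 22. Over all pairs tested CM1 was above CM4 in 53.3%, above CM5 in 50.7% and above CM2 in 43.7%. The sum of the 6 injury markers was highest in CM5 in every library. It was 9147 and 9221 CPM in CM5 of MI-WT and MI-KO, and 1153 and 1475 CPM in CM5 of Sham-WT and Sham-KO. After MI, CM4 came next with 4766 and 5363 CPM in MI-WT and MI-KO, against 2586 and 2772 CPM in CM1. CM2 carried the cell cycle markers, at 1315 to 1843 CPM against 74.5 to 114 CPM in CM1, and CM4 the immature cardiomyocyte markers, at 8739 to 24622 CPM against 3594 to 7259 CPM in CM1. CM4 also had fewer UMIs per nucleus than CM1, with medians of 1716 to 2394 against 2632 to 4044, and a higher mitochondrial share, with medians of 9.47% to 14.6% against 5.05% to 8.78%. The endothelial markers summed to 1583 to 1659 CPM in CM4 against 450 to 820 CPM in CM1, and the red blood cell markers to 3538 to 12805 CPM against 1891 to 3829 CPM. The fibroblast markers summed to 1966 to 2460 CPM in CM4 against 895 to 1047 CPM in CM1. The highest red blood cell sum was in CM2 of MI-WT, at 18447 CPM, while CM2 of the other libraries had 1051 to 1892 CPM. The part of these programs, of depth or of other cell types in the members' levels was not tested.

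After MI, 6 of the 7 genes had a lower level in CM1 than after Sham in both genotypes, and Rxfp1 had a higher one. In the WT libraries the log2 ratio of MI over Sham was -2.41 (-2.81 to -2.03) for Gm20619, -2.18 (-2.48 to -1.89) for Acss3, -1.98 (-2.29 to -1.68) for Asb14 and -1.91 (-2.13 to -1.70) for Gm40841. It was -1.35 (-1.95 to -0.76) for Pm20d1 and -1.12 (-1.36 to -0.87) for D830032E09Rik. For Rxfp1 it was 0.54 (0.31 to 0.78). At least 2-fold lower were 6 of 7 members, where 5.01% of 12738 genes tested were, and at least 2-fold higher were 0 of 7 beside 4.8%. The median of the members was -1.91 and that of all genes -0.07.

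In the libraries labelled KO the same order of surgeries held, with log2 ratios of MI over Sham in CM1 of -2.12 (-2.37 to -1.89) for Gm40841, -1.81 (-2.11 to -1.53) for Acss3, -1.65 (-2.01 to -1.31) for Asb14 and -1.23 (-1.59 to -0.89) for Gm20619. They were -0.77 (-1.02 to -0.53) for D830032E09Rik and -0.59 (-1.14 to -0.05) for Pm20d1, both short of 2-fold, and 0.62 (0.41 to 0.83) for Rxfp1. Here 4 of 7 members were at least 2-fold lower, beside 4.3% of 13152 genes, and 0 of 7 at least 2-fold higher, beside 4.36%, with a median of -1.23 for the members and 0.03 for all genes. Rxfp1 stood at or above 88.8% of the genes tested in WT and 89.2% in KO, and each of the other members stood in the lowest 12.7% in both. Among nuclei with 1000 to 3000 UMIs the ratio of Asb14 was -0.80 in WT, short of 2-fold, and -1.10 in KO, and that of Pm20d1 was -2.35 in WT.

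The choice of members and this comparison share some data, because Sham libraries gave 50.8% of the UMIs of CM1 but 38.3% of those of the other nuclei, so a pooled CM1 lead favours genes high after Sham. The leads within each library do not depend on that mix of surgeries, but they are parts of the pooled ratio that chose the members. Other values in CM1 moved with surgery. The 6 injury markers summed to 2586 and 2772 CPM in MI-WT and MI-KO and 345 and 443 CPM in Sham-WT and Sham-KO, and the 6 atrial markers to 1996 and 2436 against 178 and 299 CPM. Of the atrial list, Nppa, Myl4 and Myl7 are also in the immature cardiomyocyte list. The study names Nppa as a marker of cardiac stress, so this sum does not stand for atrial cells alone. The 8 myeloid markers summed to 500 and 243 CPM after MI against 102 and 81.4 CPM after Sham. No marker of these lists was at 0, and their part in the result was not tested.

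In CM5, Rxfp1 and Gm40841 were the 2 members with 20 or more UMIs over both WT libraries, and 2 of 2 were at least 2-fold lower after MI than after Sham, where 10.8% of 8361 genes were. In the libraries labelled KO these and Asb14 had that many, and 3 of 3 were lower, beside 9.37% of 8929 genes. Nothing is read from these counts, since 75.0% of the UMIs of CM5 came from MI libraries and the members had been chosen partly for a low level there. The log2 ratio of Rxfp1 in CM5 was -5.18 (-7.56 to -3.46) in WT and -3.82 (-5.54 to -2.45) in KO, beside 0.54 and 0.62 in CM1. Gm40841 had -4.51 and -3.35, D830032E09Rik -2.84 and -3.95 (-7.13 to -1.83), and Asb14 -2.41 and -3.81 (-6.21 to -2.04). Pm20d1 had -3.73 (-9.25 to -0.69) in KO, with 1 UMI after MI. For Acss3 it was -2.41 in WT and at most -3.02 in KO, and for Gm20619 at most -3.60 in WT, where "at most" sets an MI sum with 0 UMIs to 3 UMIs. No ratio is given for Pm20d1 in WT or Gm20619 in KO, which had 3 or fewer UMIs in CM5 after either surgery. Summed over the members, MI over Sham was -1.33 (-1.43 to -1.23) in CM1, -0.71 (-1.39 to -0.02) in CM2, -1.24 (-2.02 to -0.50) in CM4 and -3.70 (-4.37 to -3.06) in CM5 of WT, and -1.06, -0.53, -0.95 and -3.72 in KO. The differences between populations were not tested.

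**Figure D3:**
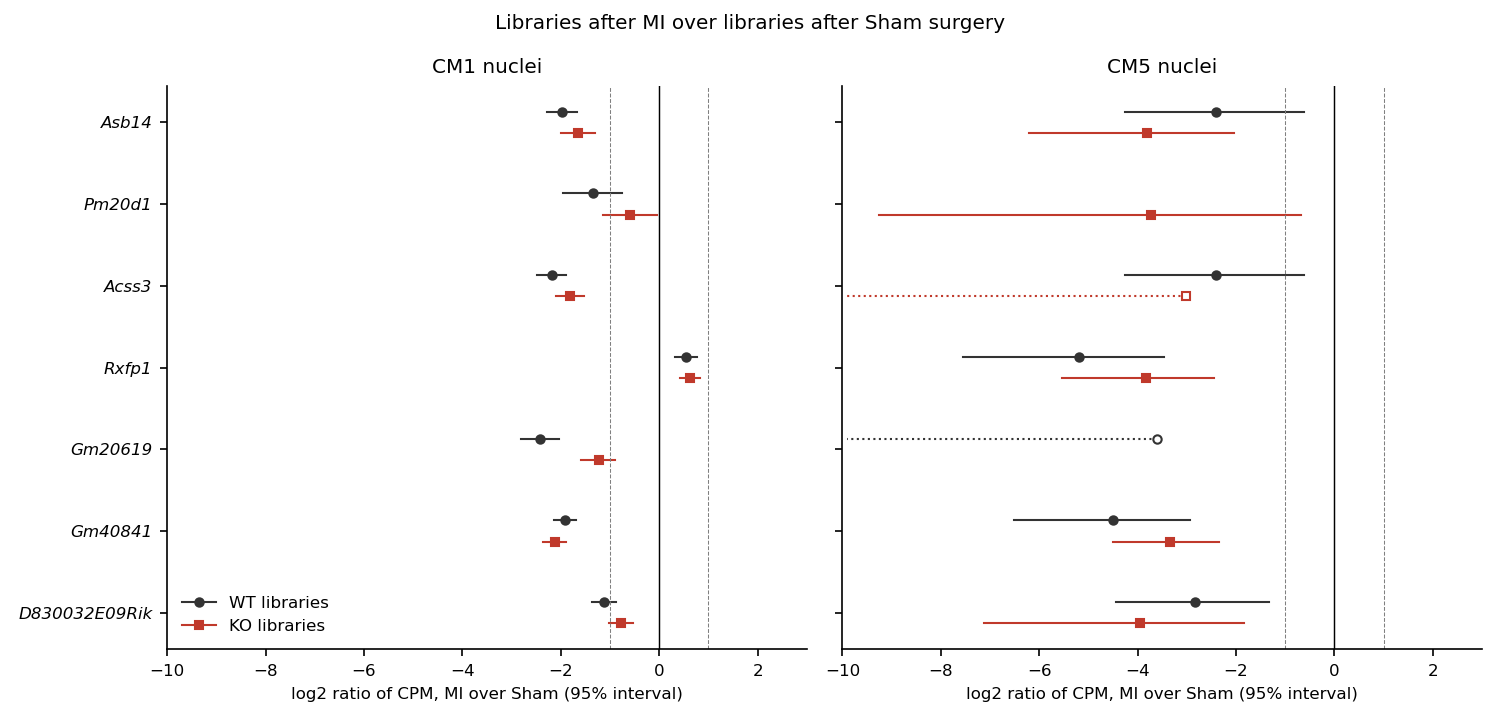
Log2 ratio of CPM after MI over CPM after Sham (horizontal axes) in CM1 and in CM5 nuclei, for WT and KO libraries, with 95% intervals as bars and 2-fold as dashed lines. Open symbols with dotted lines are bounds for sums with 0 UMIs after MI, no CM5 point is drawn for Pm20d1 in WT or Gm20619 in KO, and Rxfp1 lies right of 0 in CM1 (0.54 and 0.62) but left of it in CM5.

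Between genotypes no member differed by 2-fold in CM1. After Sham, 0 of 7 were at least 2-fold lower in the library labelled KO, beside 1.42% of 12916 genes, and 0 of 7 at least 2-fold higher, beside 1.53%. All 7 log2 ratios of KO over WT after Sham were below 0, as were 62.3% of those of all genes, with a median of -0.40 beside -0.11 for all genes, and 5 of the 7 intervals were wholly below 0, as were 21% of those of all genes. Asb14 had -0.72 (-0.94 to -0.51), Gm20619 -0.68 (-0.93 to -0.44), D830032E09Rik -0.40 (-0.60 to -0.19), Acss3 -0.29 (-0.48 to -0.11) and Gm40841 -0.19 (-0.34 to -0.05). Pm20d1 had -0.46 (-0.93 to 0.01) and Rxfp1 -0.20 (-0.44 to 0.05). The sign turned for Asb14, to 0.05, among nuclei with 1000 to 3000 UMIs and for Rxfp1, to 0.22, after thinning to 1000 UMIs. The CM1 nuclei of these libraries differed in depth and in mitochondrial RNA, with medians of 3749 UMIs and 6.13% in Sham-WT and 2632 UMIs and 8.78% in Sham-KO. In CM1 of Sham-KO against Sham-WT, the endothelial markers summed to 820 against 450 CPM, the immature cardiomyocyte markers to 5831 against 3594 CPM and the cell cycle markers to 114 against 75.4 CPM. The part of any of these in the ratios was not tested.

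After MI the CM1 ratios of the library labelled KO over the library labelled WT lay on both sides of 0, with 0 of 7 at least 2-fold lower (1.19% of 12910 genes) or higher (0.999%) and a median of -0.05 beside 0.02 for all genes. Gm20619 had 0.50 (0.04 to 0.97), or -0.37 among nuclei with 1000 to 3000 UMIs, and Gm40841 -0.41 (-0.70 to -0.12), and the other intervals included 0. They were -0.39 (-0.81 to 0.02) for Asb14, 0.30 (-0.36 to 0.96) for Pm20d1, 0.08 (-0.30 to 0.45) for Acss3, -0.12 (-0.31 to 0.08) for Rxfp1 and -0.05 (-0.33 to 0.23) for D830032E09Rik. The sign turned for Acss3, to -0.87, among nuclei with 1000 to 3000 UMIs, and for Pm20d1, to -0.40, after thinning. Nfe2l1 itself went against the label in CM1 of these libraries, so no direction by genotype is drawn from them. Summed over the members, KO over WT was -0.37 (-0.45 to -0.29) after Sham and -0.10 (-0.22 to 0.02) after MI in CM1, and 0.57 (0.10 to 1.06) and 0.86 (0.05 to 1.69) in CM4. The CM4 values rest on 51 UMIs in Sham-WT, 140 in Sham-KO, 23 in MI-WT and 34 in MI-KO. In CM2 the summed level was 293 CPM in Sham-WT, 224 in Sham-KO, 179 in MI-WT and 155 in MI-KO. In CM5 it was 246, 206, 19.0 and 15.7 CPM in that order. Both were lower in KO after each surgery, with overlapping intervals. For this contrast, shares over all genes were taken in CM1 alone.

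**Figure D4:**
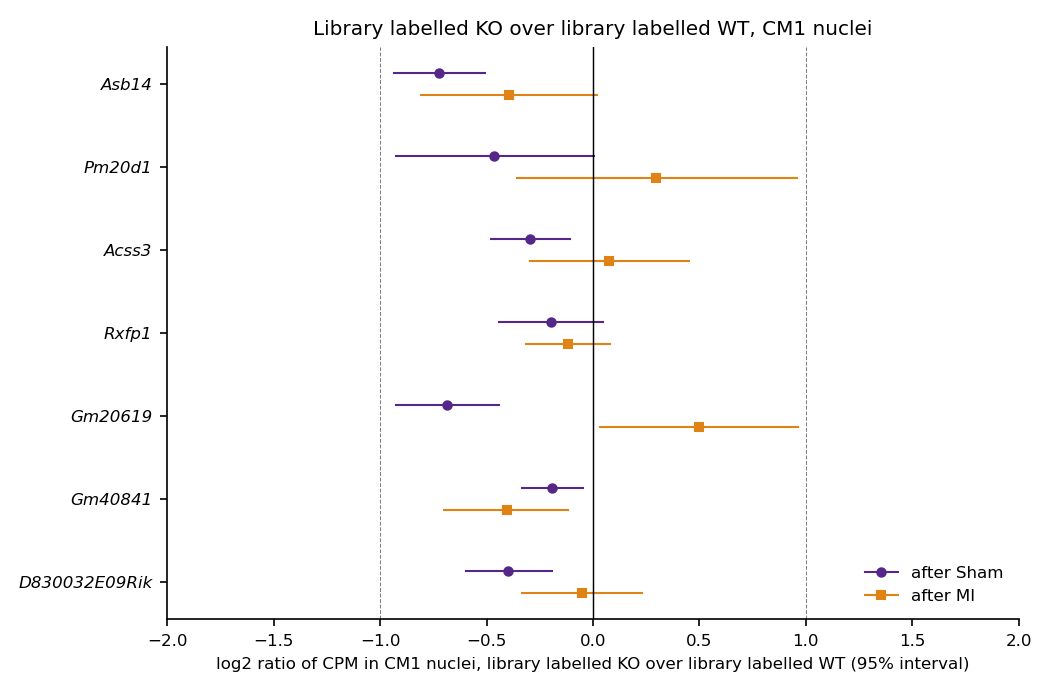
Log2 ratio of CPM in CM1 of the library labelled KO over the library labelled WT (horizontal axis), after Sham and after MI, with 95% intervals as bars and 2-fold as dashed lines. No point reaches 2-fold, and Gm20619 is at -0.68 after Sham and 0.50 after MI.

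Per nucleus, at least 1 UMI of any member was found in 49.8% of CM1 nuclei of MI-WT, 47.3% of MI-KO, 77.1% of Sham-WT and 62.5% of Sham-KO. In the other nuclei the shares were 12.4%, 13.9%, 34.4% and 35.3%. Nuclei with UMIs of 2 or more members made up 15.2%, 14.9%, 45.1% and 25.1% of CM1, and 2.21%, 1.67%, 7.14% and 8.89% of the other nuclei. Few UMIs came from any 1 nucleus: 63.4% to 94.6% of the CM1 nuclei with a UMI of a given member held 1, and the most in any was 10, of Rxfp1 in MI-WT. The matrix holds cardiomyocytes alone, so no population that should lack these genes could be set beside the shares.

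Because the populations differ in depth, the shares were also taken after each nucleus had been thinned to 1000 UMIs (1 nucleus of MI-WT and 6 of Sham-WT were shallower and were dropped). For each gene and library, the thinned share in CM1 was above that in the other nuclei, by the least for Rxfp1 in Sham-WT, at 4.01% against 3.96%. This order repeats the measure that chose the members, and no value over all genes was set beside it. Some of the thinned shares rest on few nuclei. Pm20d1 was found in 10 CM1 nuclei and 1 other nucleus of MI-WT, and in 7 and 0 of MI-KO, with overlapping 95% intervals in both libraries. Asb14 was found in 7.28%, 5.81%, 21.9% and 12.0% of CM1 nuclei of MI-WT, MI-KO, Sham-WT and Sham-KO, and in 2.05%, 1.15%, 7.20% and 4.35% after thinning. Gm40841 was found in 13.1%, 11.2%, 38.7% and 28.5%, and in 4.95%, 2.37%, 13.5% and 12.1% after thinning. Rxfp1 was found in more CM1 nuclei after MI than after Sham, with 20.8%, 19.9%, 13.4% and 10.1% before and 6.93%, 6.73%, 4.01% and 4.35% after thinning. Its thinned shares in the other nuclei were 0.852%, 1.67%, 3.96% and 2.26%.

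The order of the libraries in CM1 was the same in nuclei of middle and of high depth. With 2000 to 3999 UMIs per nucleus the summed level was 214, 194, 537 and 446 CPM in MI-WT, MI-KO, Sham-WT and Sham-KO, and with 4000 or more it was 229, 217, 588 and 444 CPM. Below 2000 UMIs it was 289, 270, 491 and 341 CPM, with 30 and 32 nuclei in the MI libraries. In CM5 the middle depth gave 18.4 and 15.5 CPM after MI and 268 and 215 CPM after Sham.

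**Figure D5:**
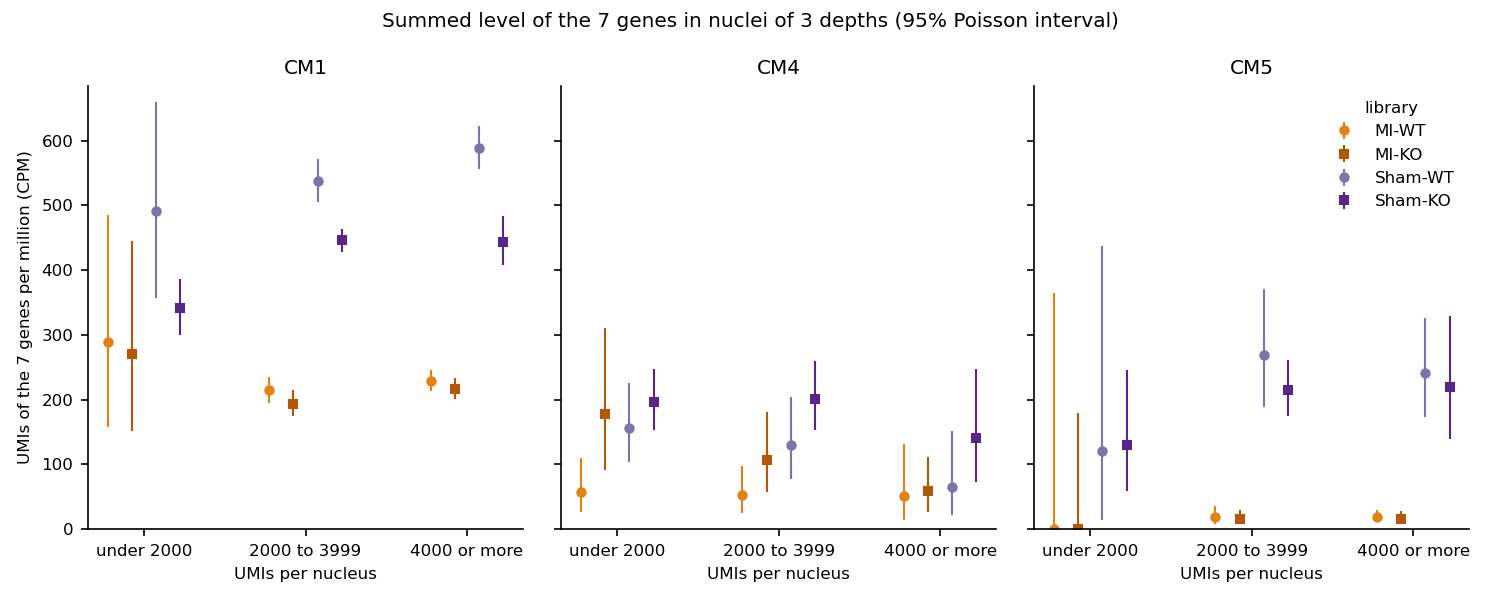
Summed level of the 7 genes in CPM (vertical axis) in nuclei of 3 depth ranges (UMIs per nucleus, horizontal axes) of CM1, CM4 and CM5, by library, with 95% Poisson intervals as bars. In CM1 both Sham libraries lie above both MI libraries at each depth, with overlapping intervals under 2000 UMIs.

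A second deposited label, transferred from an earlier reference, split CM1 further. Within final CM1, the summed members had 360 CPM (352 to 369) in the 5305 nuclei with the transferred label CM1 and 323 (303 to 343) in the 931 nuclei with the label CM3. They had 269 (226 to 317) in 156 nuclei labelled CM4 and 146 (96.4 to 213) in 47 labelled CM2. The first of these orders held in each library, with 228 against 208 CPM in MI-WT, 215 against 194 in MI-KO, 575 against 527 in Sham-WT and 448 against 391 in Sham-KO. Rxfp1 had 67.8 CPM (64.1 to 71.6) under the transferred label CM1 and 48.1 (40.7 to 56.3) under CM3. Outside CM1 the same label ordered the nuclei the same way: final CM5 nuclei with the transferred label CM1 had 132 CPM (108 to 161), and those with CM2, the name that most of final CM5 took, had 48.6 (40.9 to 57.3). In final CM4 the values were 184 CPM with the transferred label CM1 and 116 CPM with CM4. These groups pool libraries in different proportions.

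The families of the protein-coding members were followed as lists. Of the 21 other ASB genes and ligase partners, 18 had 50 or more UMIs, and 3 of them were at least 2-fold higher in CM1 than in the other nuclei over all libraries, at log2 1.05 for Asb10, 1.05 for Asb15 and 1.06 for Asb18, where 2.94% of 13142 genes with 50 or more UMIs were. Within MI-WT, MI-KO, Sham-WT and Sham-KO, in that order, the lead of Asb10 was 2.63, 1.29, 0.04 and 0.51. That of Asb18 was 1.48, 1.69, 0.92 and 0.31. For Asb15 it was 0.77, 0.94, 0.89 and 0.66, below its pooled value and short of 2-fold in every library. At least 2-fold lower were 0 of 18, beside 5.1% of all genes, and the median was 0.27. Elob, an adaptor of the Cullin ligases with the most UMIs of the list (6112), had a lead of -0.40. Asb15 had a pattern of surgery close to that of Asb14, with 3.97 CPM in CM1 of MI-WT, 4.70 of MI-KO, 26.7 of Sham-WT and 17.9 of Sham-KO, and a log2 ratio of MI over Sham of -2.75 in WT and -1.93 in KO. Asb13 had -1.08 and -1.01, and Asb12, with 50 UMIs in all, 1.61 in WT, so that in WT 1 of 18 was at least 2-fold higher and 2 lower, and in KO 0 higher and 2 lower. Of all genes with 50 or more UMIs, 5.25% were higher and 5.32% lower in WT, and 4.68% and 4.08% in KO, which is the background for each of these lists. The medians of the list were -0.28 and -0.24.

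Of the 9 other symbols in the list of short-chain acyl-CoA synthetase and propionate genes, 8 had 50 or more UMIs. The remaining symbol, Mut, is an older name of Mmut, which was among the 8. Acss1, the mitochondrial acetyl-CoA synthetase, led in CM1 by 1.48 on the log2 scale over all libraries. Within MI-WT, MI-KO, Sham-WT and Sham-KO its lead was 2.15, 2.16, 0.87 and 0.81. Acss1 was the 1 gene at least 2-fold higher in CM1 over all libraries, beside 2.94% of all genes with 50 or more UMIs. The median of the list was 0.14, and Pcca, a subunit of propionyl-CoA carboxylase with the most UMIs of the list (2178), had 0.61. None of the 8 was 2-fold different after MI in WT, and in KO Mcee, an epimerase of the propionate pathway, had -1.31. The medians of the list for MI over Sham were -0.29 in WT and -0.13 in KO, beside -2.18 and -1.81 for Acss3. Of the 6 other N-acyl amino acid and M20 peptidase genes, 3 had 50 or more UMIs. Among these Acy1 led in CM1 at least 2-fold over all libraries, as the 1 such gene, beside the same 2.94% of all genes. Acy1 had 92 UMIs, and its lead was 1.63, 0.78, 1.38 and 0.53 in MI-WT, MI-KO, Sham-WT and Sham-KO. Cndp2, with the most UMIs (403), had a lead of -0.60. Pm20d2 had 1.23 for MI over Sham in WT, the opposite sign to Pm20d1. Of the 8 other relaxin peptides and receptors, 3 were in the matrix and 0 had 50 UMIs, so Rxfp1 was the one member of that family with a level that could be compared.

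The annotation holds 10 genes that overlap a member and 29 more within 100 kb, of which 18 were in the matrix and 12 had 50 or more UMIs. Their pooled log2 ratios of CM1 over the other nuclei ran from -0.48 for Nucks1 to 1.27 for Rab29, both near Pm20d1, with a median of -0.09. Rab29, a small GTPase with 108 UMIs, was the 1 of the 12 at least 2-fold higher in CM1, beside 2.94% of all genes. Slc25a13, a mitochondrial aspartate/glutamate carrier near Gm20619, had 0.72, and Etfdh, of mitochondrial electron transfer, near Rxfp1, had 0.45. 2610307P16Rik near Gm40841 had 0.28, Fnip2 near Rxfp1 0.09, Slc41a1 near Pm20d1 -0.06, and Appl1 near Asb14 -0.33. Near Rxfp1, Tmem144 had -0.12, Ppid -0.22 and 4930579G24Rik -0.43. Of the overlapping genes, Ppfia2, on the strand opposite to Acss3, was the 1 in the matrix, with 60 UMIs and -0.39, against 1355 UMIs of Acss3. How the counting used strand is not given in the sources used here.

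The genes whose level was most like that of the summed members over the 16 sums of library and population were found by Pearson's r of log2(CPM + 1) among 9907 genes with 200 or more UMIs. These sums share 4 libraries and differ in depth, so r is a description. The 10 highest were Abcc9 (r = 0.973), Slc27a1 (0.970), Cd36 (0.970), Smtn (0.968), Agtr1a (0.959), Nr3c2 (0.957), Pitpnc1 (0.954), Rbfox1 (0.952), Lgals4 (0.952) and BB218582 (0.950), and 6 of them were among the 10 highest over the 12 sums of 100 or more nuclei. Abcc9 encodes a regulatory subunit of ATP-sensitive potassium channels. It had 185 CPM in CM1 of both MI libraries, 368 in Sham-WT and 295 in Sham-KO, and a lead of 1.53, 1.35, 0.92 and 0.44 in MI-WT, MI-KO, Sham-WT and Sham-KO. It was also most of the smooth muscle and pericyte marker list, whose 5 genes summed to 209, 210, 395 and 330 CPM in CM1 in that order. Cd36, a fatty acid uptake receptor, had 497, 533, 792 and 756 CPM, and Nr3c2, the mineralocorticoid receptor, 190, 175, 356 and 257 CPM. Each had a larger lead in both MI libraries than in both Sham libraries, at 0.999 and 1.09 against 0.37 and 0.38 for Cd36, and 1.85 and 1.94 against 1.21 and 0.66 for Nr3c2. These leads count CM5 among the other nuclei and were not taken without it. The genes were listed for following the summed members, whose lead had the same order only with CM5 counted. Each member's own r with the other members summed was 0.91 for Gm40841, 0.90 for D830032E09Rik, 0.89 for Acss3, 0.80 for Asb14, 0.80 for Rxfp1, 0.63 for Pm20d1 and 0.60 for Gm20619. The members were chosen for a CM1 lead that these sums contain, so r among members partly repeats the choice and nothing is read from it. In CM1, Rxfp1 was higher after MI while the other members were lower, which its r does not show.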

How the data were processed

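Single-nucleus RNA-seq of 4 libraries, 1 per group, was used. Per the study's methods, the authors made the deposited matrix of UMI counts, with no normalization, by Cell Ranger alignment to the mm10/GRCm38 pre-mRNA reference. They removed doublets with Scrublet, kept nuclei with 200 to 2500 detected genes and kept cardiomyocytes only, and no doublet caller was run here. Final and transferred labels (Seurat 3) and the percent of mitochondrial UMIs were deposited per nucleus, and 11 further columns went unused. Matrix sums equalled the deposited totals in 100% of 8585 nuclei. For each population of each library, UMIs per gene were added up and divided by the total (CPM). A sum with 0 UMIs was set to a floor of 3 UMIs in a ratio, and no ratio is given where both sums were at or under 3. A difference of 2-fold was the call, over genes with 20 or more UMIs in both sums together. GENCODE M21 matched 22133 of 22574 symbols (98.0%). Named were the members, the genes next to them in rank, in likeness and on the chromosome, the family genes past 2-fold or with the most UMIs, and Nfe2l1. Of the genes ranked among the members at a minimum of 50 UMIs, those with 200 or more are named, and 1 result on rank is not reported here. The members and lists were chosen with earlier results of these data known. Alternatives were TMM factors (edgeR 4.0.16, R 4.3.3), median-of-ratios factors, thinning, a window of 1000 to 3000 UMIs per nucleus, equal weight per nucleus, agreeing labels, other minimums and leaving out a library. The steps were tested on simulated data. Python 3.11.15, numpy 2.4.6, scipy 1.17.1, pandas 2.3.3 and matplotlib 3.10.9 were used.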

Additional observations from a re-analysis of the deposited data

Results flagged for a closer look

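Rxfp1 had opposite signs in 2 populations under the same contrast. Its log2 ratio of MI over Sham was 0.54 in WT and 0.62 in KO libraries in CM1, and -5.18 in WT and -3.82 in KO libraries in CM5. The CM5 values rest on 3 and 5 UMIs after MI, these CM5 levels are part of the ratio that chose the gene, and the difference between the populations was not tested.

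Gm20619 had opposite signs of KO over WT in CM1 after the 2 surgeries, at -0.68 after Sham and 0.50 after MI, both with intervals that excluded 0. Among nuclei with 1000 to 3000 UMIs the ratio after MI was -0.37. The difference was not tested, and after MI the CM1 level of Nfe2l1 went against the label, while its ratio was -0.95 in CM4, -0.81 in CM2 and 0.06 in CM5.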

How the results depend on the processing

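Of 412 alternative values for single members, 404 kept the direction of the value reported and 353 stayed inside its 95% interval, and for the summed members 76 of 76 kept the direction and 56 stayed inside. A further 8 alternatives gave no ratio, because a sum held 0 UMIs or both held 3 or fewer. All of them were leads of Pm20d1, Gm20619 or Asb14. The sole called lead that reversed was Acss3 in MI-KO, from 1.63 to -0.058 on the log2 scale with CM5 left out of the other nuclei. The summed lead moved in MI-WT from 2.32 to 2.87 (thinned), 2.004 (nuclei whose labels agree), 1.98 (Rxfp1 left out) and 1.14 (CM5 left out); in MI-KO from 2.08 to 1.09 (1000 to 3000 UMIs), 1.21 (labels agree) and 0.75 (CM5 left out). In Sham-WT it moved from 1.52 to 2.17 (labels agree), 1.76 (Rxfp1 left out) and 1.77 (CM5 left out), and in Sham-KO from 1.09 to 1.44 (labels agree). Agreeing labels left CM4 as the only other nuclei. MI over Sham in CM1 moved in WT from -1.33 to -1.22 (thinned), -1.04 (1000 to 3000 UMIs), -1.15 (Gm40841 left out) and -1.83 (Rxfp1 left out), and in KO from -1.06 to -1.16 (thinned), -0.74 (Gm40841 left out) and -1.53 (Rxfp1 left out). KO over WT after MI moved from -0.10 to -0.30 (thinned) and -0.39 (1000 to 3000 UMIs). The pooled lead of 1.72 ranged from 1.55 without MI-WT to 2.11 without Sham-KO. Leaving out a gene or CM5 was chosen after seeing the data, and the cause of each move was not tested.

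The sign also turned for the Rxfp1 lead in Sham-WT -0.03 (thinned), and KO over WT for Rxfp1 after Sham 0.22 (thinned), Asb14 after Sham 0.05 (1000 to 3000 UMIs), Pm20d1 after MI -0.40 (thinned), Acss3 after MI -0.05 (equal weight per nucleus) and -0.87 (1000 to 3000 UMIs), and Gm20619 after MI -0.37 (1000 to 3000 UMIs).

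The background shares depended on the minimum number of UMIs. With a minimum of 1 UMI, 14.8% of genes were at least 2-fold lower and 10.4% higher after MI in CM1 of WT, and 9.68% and 13.7% in KO; with 100 UMIs it was 2.44%, 2.3%, 2.6% and 2.42%. For KO over WT the shares lower and higher were 11.5% and 3.48% after Sham and 7.36% and 8.88% after MI with 1 UMI, and 0.0984%, 0.383%, 0.179% and 0.0447% with 100. In CM5, 35.9% (WT) and 27.3% (KO) were lower with 1 UMI and 7.1% and 7.84% with 100. Shares with a 2-fold CM1 lead were 3.16% to 6.53% with 1 UMI and 0.508% to 4.83% with 100. Members ranked 68 to 135 with a minimum of 20 UMIs and 7 to 21 with 100.

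No paired analysis was possible because each group had 1 library. Differences in pooling, dissection or library preparation cannot be told apart from those between groups, and the small CM2, CM4 and CM5 sums limit each ratio that uses them.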
